A study of Drosophila melanogaster with 8 samples.

Results

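RNA polymerase II (Pol II) transcribes protein coding genes, and its density along a gene is commonly used as a measure of transcription. In targeted DamID a bacterial DNA adenine methyltransferase (Dam) is joined to a Pol II subunit and expressed in 1 cell type, so that GATC sites near the polymerase are methylated there. Cutting at those sites gives a value for each stretch between neighbouring GATC sites, called a fragment here. Terminal tracheal cells, the branched cells that carry air to the adult fly midgut, were profiled in this way. The stretches described are the fragments with the strongest Pol II signal in every profile. They were chosen by their values in the profiles, as fragments of 100 bp or more on arms 2L, 2R, 3L, 3R, 4 and X that overlap a gene of the Release 6 annotation and have a log2 ratio, Dam-Pol II divided by Dam (base 2 assumed), above 2 in all 4 profiles. By this rule there were 1409 strongly occupied fragments among 191736 gene-overlapping fragments of that length, or 0.735%, and among 383682 fragments in the profiles.

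Every fly carried dSRF-GAL4, which the labels use to mark terminal tracheal cells, together with UAS-CD8GFP and the temperature-sensitive repressor tub-GAL80ts. Each also carried either UAS-LT3-Dam or UAS-LT3-Dam-Pol II, in the w- background. Flies were raised at 18 °C, collected every 48 hours and aged there for 7 more days, then held at 29 °C for 24 hours, and for the last 16 hours were fed sucrose (Suc, control intestine) or sucrose with the bacteria solution Pe (damaged intestine). The 8 libraries form 4 groups of 2, and 1 Dam-Pol II library with its Dam library makes 1 profile, giving 2 Pe and 2 Suc profiles from 60 pooled midguts each. Dam was expressed under a driver, but DNA came from the whole dissected midgut with its tracheal cells, so signal from any other cell in which the driver is active cannot be told apart.

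The values that chose the fragments are given as a description. Over the 1409 fragments the median log2 ratio was 2.41 in Pe replicate 1, 2.79 in Pe replicate 2, 2.58 in Suc replicate 1 and 3.27 in Suc replicate 2. Over all 191736 fragments the corresponding medians were between -0.03 and 0, and the 95th percentiles were 1.46, 1.68, 1.60 and 2.35 in the same order. Suc replicate 2 therefore had the widest upper tail, and 6.99% of its fragments exceeded 2, against 1.85% in Pe replicate 1, 3.14% in Pe replicate 2 and 2.77% in Suc replicate 1. Pe replicate 1 gave the lowest of the 4 values at 660 of the 1409 fragments (46.8%), and Suc replicate 2 at 76 (5.39%). Within a fragment the 4 values spanned a median of 1.16, from 0.0739 to 3.88. The lowest of the 4 values exceeded 2.5 at 308 fragments and 3 at 54. The profiles give ratios without counts, so depth is unknown, and only 2 profiles per condition bear on the precision.

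**Figure D1:**
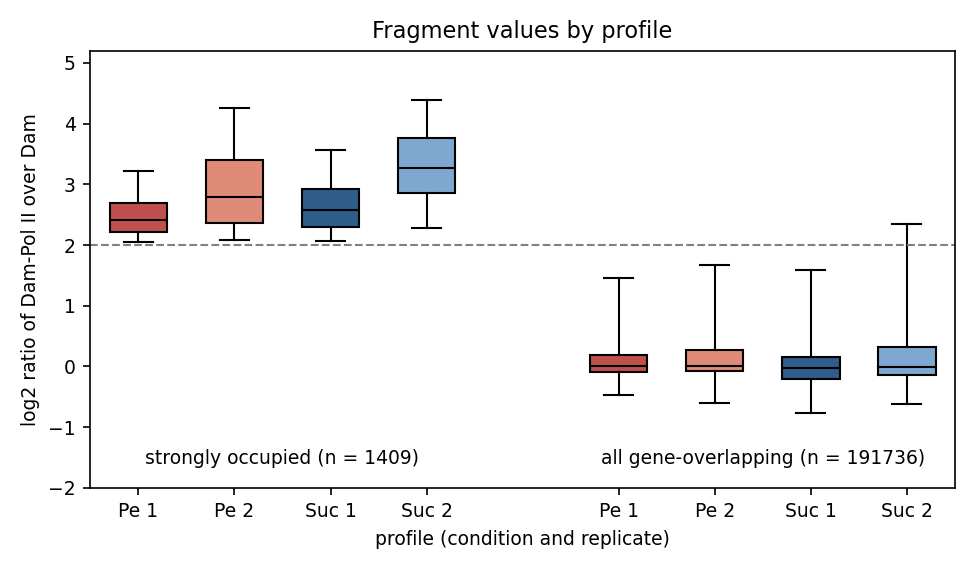
Log2 ratio (Dam-Pol II divided by Dam) per fragment, with 1 box for each profile. Left, the 1409 strongly occupied fragments; right, all 191736 gene-overlapping fragments of 100 bp or more. Boxes show the quartiles and the median, whiskers the 5th and 95th percentiles, and the dashed line the threshold of 2. The medians on the left run from 2.41 to 3.27, while those on the right lie near 0.

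Fragments next to the threshold show how narrow the margin was. Just inside it lay a fragment in Gpo1, with a lowest value of 2.0005, one in Dad at 2.0006 and one in D19B at 2.0006. Just outside it lay a fragment shared by qin and CG14301 at 1.9997, one in Indy at 1.9997 and one in CG33181 at 1.9996. Between 2.0 and 2.1 there were 315 fragments, and 431 between 1.9 and 2.0.

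Each profile was also left out of the choice in turn and used as a replicate that the choice had not seen. Of 2023 fragments above 2 in the other 3 profiles, 69.6% exceeded 2 in Pe replicate 1, where 1.85% of all fragments did. For Pe replicate 2 the share was 54.4% of 2592, against 3.14% of all fragments. For Suc replicate 1 it was 79.1% of 1781, against 2.77%, and for Suc replicate 2 it was 95.8% of 1471, against 6.99%. In the left-out profile 89.0% of the fragments exceeded 1 in Pe replicate 2 and at least 99.4% in each of the others. Strong occupancy in 3 profiles was thus mostly accompanied by a value above 1 in the fourth, and Pe replicate 2 was the profile in which the value most often fell short of 2.

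Merging adjacent fragments gave 1057 runs. Most runs held a single fragment (809 runs, 76.5%), 178 held 2, 48 held 3 and 22 held 4 or more, so that 600 of the 1409 fragments (42.6%) stood beside another. The runs had a median length of 415 bp, with quartiles of 308 and 649 bp, and 84 runs exceeded 1000 bp. Short fragments broke up some longer stretches. In 77 cases 2 neighbouring runs were kept apart by 1 fragment, which was under 100 bp in 47 of them, and in 44 of those 47 the short fragment also exceeded 2 in all profiles. With 1 intervening fragment allowed there were 980 runs.

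**Figure D2:**
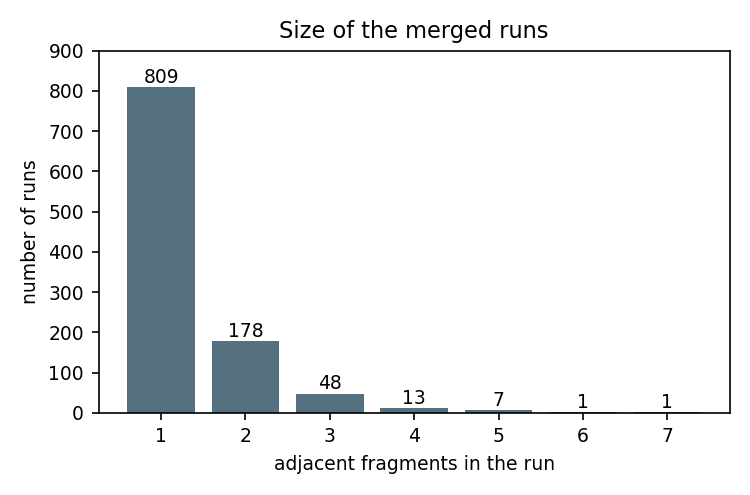
Number of runs (vertical axis) by the number of adjacent strongly occupied fragments merged into the run (horizontal axis). The bar for 1 fragment holds 809 runs, and 1 run each held 6 and 7 fragments.

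Signal fell off over several fragments around the runs. Averaged over 1057 runs, the first fragment on the lower-coordinate side had a mean of 1.80 in Pe replicate 1, 2.20 in Pe replicate 2, 1.96 in Suc replicate 1 and 2.70 in Suc replicate 2. At 5 fragments from the run the means were 0.88, 1.13, 0.89 and 1.42, and 10 fragments away they were 0.65, 0.86, 0.63 and 1.06. The medians were lower, at 0.66, 0.99, 0.69 and 1.23 for 5 fragments and 0.34, 0.55, 0.30 and 0.70 for 10. Of the 2114 fragments that bordered a run, 94.1% had a mean over the profiles above 1, and only 1 had a mean below 0. Among all gene-overlapping fragments of 100 bp or more 10.9% had a mean above 1. The 2 sets differ, since 769 of the bordering fragments (36.4%) were under 100 bp. Also, 396 (18.7%) exceeded 2 in all profiles and were left out only as short or without a gene. By distance, fragments of 100 bp or more within 250 bp of a run had means between 1.5 and 2.36 in the 4 profiles. Those 2000 to 3000 bp away had means between 0.38 and 0.78, and those over 50000 bp away had means between -0.02 and 0.05. Runs also lay near each other, with another run within 2000 bp for 380 of 1057 (36.0%) and within 10000 bp for 573 (54.2%).

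**Figure D3:**
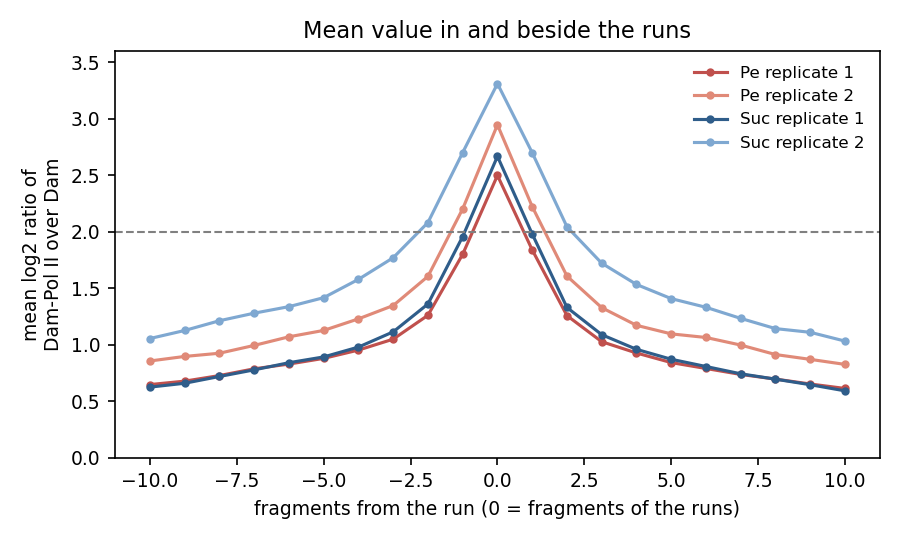
Mean log2 ratio, Dam-Pol II divided by Dam (vertical axis) by the number of fragments from the run (horizontal axis), 1 line per profile. Position 0 is the mean over the 1409 strongly occupied fragments, and each other position the mean over the fragments at that distance from the 1057 runs, with negative positions on the lower-coordinate side. All 4 lines fall on both sides and are still between 0.59 and 1.06 at 10 fragments.

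The longest run covered 3152 bp of GlcAT-P, a glucuronyltransferase gene, at chr3L:11178281-11181433. Its mean log2 ratios were 2.34 and 2.93 in Pe and 2.62 and 3.0 in Suc, so the conditions overlapped. The gene spans 20583 bp and the run begins 1327 bp from its nearer end, well inside it. The same gene held 4 further runs, the highest being a single fragment with 3.01 and 4.74 in Pe and 3.0 and 3.74 in Suc. The run with the most fragments, 7, covered 2837 bp of CG1213 at chr3R:5842978-5845815, with 3.10 and 3.62 in Pe and 3.10 and 4.28 in Suc. CG1213 had 13 strongly occupied fragments in 5 runs, and these covered 78.3% of its 5399 bp.

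Other long runs crossed from one gene to the next. One of 2576 bp on 3R held an end of Jon99Ci, a gut serine protease gene, and an end of CG15522, with 2.79 and 3.52 in Pe and 3.01 and 3.71 in Suc. Another of 2425 bp on X held the whole of whe and an end of lncRNA:CR45500, with 3.0 and 3.56 in Pe and 2.59 and 3.29 in Suc. The run of 2104 bp on 2L touched 4 genes, CG6785, CG6770, lncRNA:CR44589 and Plzf, and had 2.53 and 2.22 in Pe and 3.05 and 4.30 in Suc. Such runs do not show which of the genes carried the polymerase. Runs that overlap 1 gene were those of flw, a catalytic subunit gene of protein phosphatase 1 (2242 bp; 2.26 and 3.53 in Pe, 2.23 and 2.45 in Suc), and of CG9171, where 1 fragment of 1966 bp that reaches past an end of the gene had 2.42 and 2.31 in Pe and 2.35 and 3.73 in Suc. The run in Oda, the ornithine decarboxylase antizyme gene, covered 2164 bp with 2.12 and 2.81 in Pe and 2.47 and 4.14 in Suc, and it also overlaps asRNA:CR46194 and mir-281-1.

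Ranked by the lowest of their 4 means, the highest run was a fragment of 252 bp shared by CG7912 and Nlp, which encodes a nucleoplasmin-type histone chaperone. It lies at chr3R:30005965-30006217 and had 4.0 and 4.64 in Pe and 4.24 and 4.13 in Suc. Next came a fragment shared by CG13551 and yellow-d on 2R, with 3.78 and 4.20 in Pe and 4.43 and 4.27 in Suc. A fragment at one end of Ugalt, which encodes a UDP-galactose transporter, followed on X with 3.68 and 5.34 in Pe and 3.53 and 4.73 in Suc. The Pe and Suc values overlapped at Nlp and Ugalt, and at CG13551 and yellow-d both Pe values lay just below both Suc values.

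The fourth of this order, a fragment of 612 bp inside the synaptotagmin gene Sytbeta that also holds ends of CG12310 and CG43679, had 3.61 and 5.53 in Pe and 3.51 and 4.83 in Suc. A fragment of 274 bp in the middle of Sox21b, a SoxB transcription factor gene, had 3.51 and 4.29 in Pe and 3.43 and 3.64 in Suc. Sox21b held 8 strongly occupied fragments, among them a run of 4 that begins at position 14113861 on 3L. Fragments in CG8668 (3.38 and 4.77 in Pe, 3.92 and 4.18 in Suc) and CG10650 (3.52 and 3.53 in Pe, 3.34 and 3.89 in Suc) overlap no other gene. The run of 3 fragments in Egfr, the EGF receptor gene, lies 441 bp from one end of a gene of 37558 bp and had 3.32 and 3.44 in Pe and 3.87 and 3.56 in Suc. The run at His4r, a replication-independent histone H4 gene, and put, an activin receptor gene, had 3.38 and 4.22 in Pe and 3.31 and 4.64 in Suc. The conditions did not overlap at Egfr, where Pe was lower, and overlapped at the other fragments of this paragraph except the last. The last of the 10, at thoc6 and Est-P, had 3.38 and 4.21 in Pe and 3.25 and 3.33 in Suc, with Pe higher.

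Strong occupancy touched 1033 of 17679 genes with a fragment of 100 bp or more, or 5.84%. Of these 936 were protein coding (6.72% of such genes), 46 were lncRNA genes (2.35%), 28 were antisense RNA genes (5.57%) and 2 were tRNA genes (0.694%). At 679 of the 1033 genes (65.7%) a single fragment was strongly occupied, and at 151 genes 3 or more were. Strongly occupied fragments made up a median of 9.56% of the length of a gene they touched and at least 50% of it at 79 genes. The remaining fragments of these genes had a median of 0.21 over the profiles, and 28.7% of them exceeded 1. Of the 1033 genes 70 had a value above 2 in all profiles when averaged over their whole length, and 433 (41.9%) had a mean below 1. The fragments thus mark parts of genes more often than whole genes.

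The share of genes touched varied with gene length. Of genes under 1000 bp 2.18% held a strongly occupied fragment, and of genes of 20000 bp or more 14.3% did. Per fragment the longest genes had the lowest share, with 1.15% of the fragments of genes under 1000 bp and 0.36% of those of genes of 20000 bp or more. Over all genes this share was 0.781%. The median length was 4215 bp among touched genes and 1711 bp among all genes.

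The gene with the most strongly occupied fragments, 17 in 12 runs, was mtd (mustard), a gene of 80328 bp related to the oxidation resistance genes. The runs were spread between positions 5276661 and 5336412 on 3R, none of them longer than 784 bp, and the mean of the whole gene was 1.42 and 1.67 in Pe and 1.56 and 2.21 in Suc. CG7720 had 11 fragments in 9 runs, CG4928 had 10 in 7, and Gmap, which encodes a Golgi-associated protein, had 9 in 7. CG46385, Eip63F-1 and Roc2 also had 9 each, and Gmap is described because these fragments cover the largest share of its length among the 4. For CG7720, CG4928 and Gmap the strongly occupied share of the gene was 13.4%, 12.1% and 15.4%. These genes contrast with short genes that were covered almost from end to end. Among genes of at least 1 kb, CG33109 was covered fully by a run of 5 fragments, with 2.83 and 4.09 in Pe and 2.63 and 3.70 in Suc. COX5B, a cytochrome c oxidase subunit gene, was covered to 92.8% and had 3.05 and 3.24 in Pe and 3.47 and 3.74 in Suc over its run. For CAH9, a carbonic anhydrase gene, the share was 87.9% in 3 runs, and for the cytochrome P450 pseudogene Cyp6a15Psi it was 83.7%.

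Position within the gene was measured without strand, which the gene table does not give, as the distance to the nearer end. A strongly occupied fragment held an end of a gene in 327 of 1409 cases (23.2%), against 13% of all gene-overlapping fragments. The median distance from the middle of the fragment to the nearest gene end was 695 bp, against 1844 bp. Of the runs 301 (28.5%) held a gene end. Among fragments of a single gene of 2000 bp or more, 28.9% of the 958 strongly occupied ones lay within 0.1 of the gene's length from either end, against 20.4% of all 146941. From 0.1 to 0.2 the shares were 22.0% and 20.2%, then 15.3% and 20.1%, 15.8% and 19.8%, and 18.0% and 19.6% in the middle of the gene. For genes of 10000 bp or more the middle held 21.5% of 455 strongly occupied fragments against 19.0% of all, and the outermost 0.1 held 26.4% against 21.7%. Whether an end is the start or the termination site cannot be told apart here.

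Strongly occupied fragments lay where genes are close together. Counting every gene that reaches within 10 kb of the middle of a fragment, the median was 6 genes for strongly occupied fragments and 4 for all gene-overlapping ones. A neighbourhood of 6 or more genes, which is at or above the 75th percentile of all these fragments, surrounded 718 of the 1409 (51.0%) and 30.9% of all. The share of fragments that were strongly occupied was 0.381% with 1 to 3 genes nearby, 0.878% with 4 to 6, 1.23% with 7 to 9, 1.39% with 10 to 12 and 2.08% with 13 or more. A strongly occupied fragment overlapped 2 or more genes in 19.9% of cases, against 13.6%. Gene ends are themselves more frequent in such neighbourhoods, so that density and position are not separate measures.

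The length of a fragment moved with the result too. Strongly occupied were 0.206% of fragments of 100 to under 200 bp, 1.16% of those of 200 to under 300 bp, 1.68% from 300 to under 400 bp, 0.949% from 400 to under 600 bp, 0.687% from 600 to under 1000 bp and 0.110% of longer ones. Among fragments of 200 to under 600 bp alone, 51.4% of 1082 strongly occupied and 32.7% of all fragments stood in neighbourhoods of 6 or more genes. In the same lengths 21.1% and 11.7% held a gene end. By arm, 2R had the largest share at 0.903%, and 2L, 3L, 3R and X lay between 0.685% and 0.727%. Chromosome 4 had 1 strongly occupied fragment of 2051, in eIF4G1, a translation initiation factor gene, with 2.39 and 2.76 in Pe and 2.23 and 3.23 in Suc.

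**Figure D4:**
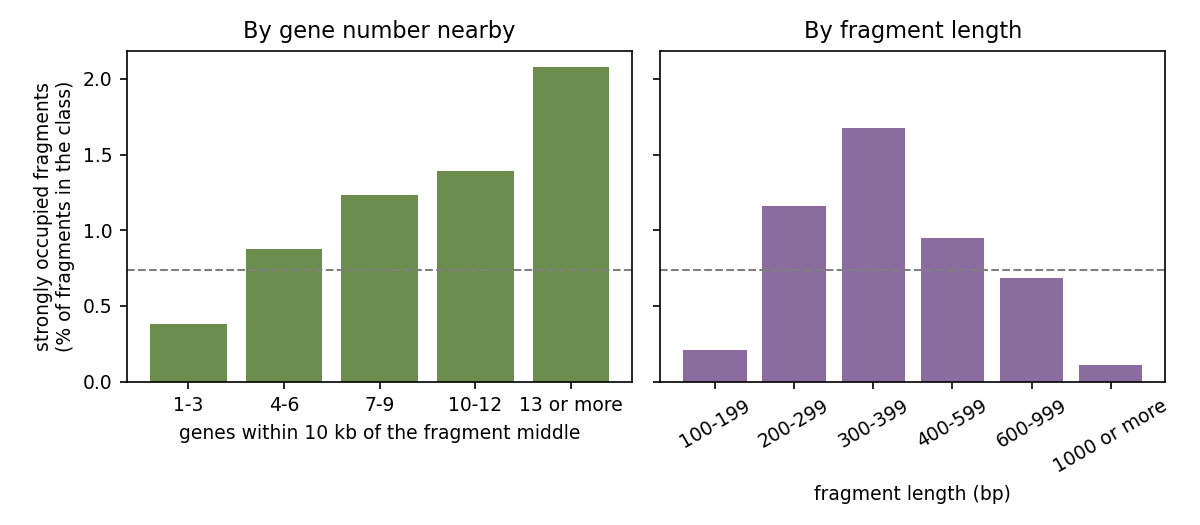
Share of gene-overlapping fragments that were strongly occupied (vertical axes, percent), by the number of genes within 10 kb of the fragment (left) and by fragment length in bp (right). The dashed line is the share of all 191736 fragments, 0.735%. The left bars rise from 0.381% to 2.08%, and the right bars peak at 1.68% from 300 to under 400 bp.

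Groups of genes with general cell functions were touched at different rates. Because the rule used these values, counts are given beside the 5.84% of all genes and without a test. Of 12 genes of the endoplasmic reticulum and integrated stress responses 6 were touched (50%), among them Calr, the calreticulin chaperone gene, Hsc70-3, the BiP chaperone gene, and Gp93. In Calr the higher of 2 fragments had 2.64 and 2.75 in Pe and 3.5 and 4.53 in Suc, and in Hsc70-3 the single fragment had 2.37 and 3.66 in Pe and 2.18 and 3.73 in Suc. Of 14 glycolysis genes 5 were touched (35.7%), namely Eno, Gapdh2, Hex-A, Pgi and Pgk. The fragment in Gapdh2 had 2.39 and 2.14 in Pe and 3.10 and 3.97 in Suc. Of 14 oxidative stress genes 5 were touched, including cnc, the Nrf2-type regulator, and the thioredoxin gene Trx2, whose fragment had 2.53 and 2.75 in Pe and 3.65 and 4.81 in Suc. As deposited, both Suc values lay above both Pe values at Calr, Gapdh2 and Trx2, while at Hsc70-3 the conditions overlapped. Such a separation was found at 28.0% of strongly occupied fragments and 11.6% of all fragments. After quantile normalization it was found at 7.88% of the strongly occupied ones. Hsc70-3 is counted again among the chaperones, and Gapdh2 again among the hypoxia genes.

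Cytoskeletal genes were touched in 5 of 20 cases (25%). Act5C, a cytoplasmic actin gene, held 5 strongly occupied fragments over 45.0% of its length. One of them, at chrX:5901592-5902415, had 2.37 and 2.77 in Pe and 2.19 and 3.78 in Suc, so the Suc profiles lay on both sides of Pe. Heat shock proteins and chaperones had 6 of 36 genes touched (16.7%) and translation initiation and elongation factors 8 of 51 (15.7%). The vacuolar proton pump had 4 of 33 (12.1%), secretory coats and tethers 4 of 36 (11.1%), and mitochondrial ribosomal proteins 8 of 73 (11%). In Cog7, a Golgi tethering subunit gene, 6 fragments covered 68.2% of the gene, and the highest of them had 3.59 and 4.24 in Pe and 4.23 and 4.44 in Suc.

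Oxidative phosphorylation had 9 of 89 genes touched (10.1%) and cytosolic ribosomal proteins 9 of 90 (10%). Genes of the latter group are short, with a median of 1326 bp, and 2.84% of their fragments were strongly occupied, against 0.781% over all genes. In RpS6 the fragment had 2.66 and 3.90 in Pe and 2.30 and 3.18 in Suc, and it also overlaps CR33222 and a snoRNA gene. The proteasome, with 2 of 32 genes (6.25%), and the cytosolic aminoacyl-tRNA synthetases, with 1 of 18 (5.56%), were near the share of all genes, and Rab GTPases had 1 of 31 (3.23%).

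Smaller groups gave few genes each. The gene hoip, whose product binds spliceosomal and nucleolar small RNAs, was the single gene of 7 touched in the list of Sm proteins and hoip, and the higher of its 2 fragments had 3.08 and 3.62 in Pe and 3.85 and 4.80 in Suc. Of the 12 Pol II subunit genes only Polr2A, the largest subunit gene, was touched, with 6 fragments over 38.9% of its length. Its highest fragment lies at chrX:11566512-11567287, with 3.17 and 4.54 in Pe and 3.55 and 4.03 in Suc. Since Dam is fused to a Pol II subunit in the construct, reads from the gene and from such a transgene cannot be told apart, and the labels do not name the subunit. His3.3B and His4r were 2 of 5 replication-independent histone genes. The hypoxia list had 2 of 11 genes touched (18.2%), Gapdh2 and the hypoxia factor gene sima. Imd and Toll components had 4 of 21 (19.0%), namely Rel, Tab2, imd and spz. JNK and immediate early genes had 3 of 11 (27.3%), namely egr, kay and puc. The genes of the JNK list are long, with a median of 16963 bp, and 12.4% of all genes of 5000 to 20000 bp were touched. Of the fragments of the JNK list 1.26% were strongly occupied, against 0.781% over all genes. The JNK phosphatase gene puc held 1 fragment of 376 bp, with 2.35 and 2.23 in Pe and 3.22 and 2.1 in Suc.

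**Figure D5:**
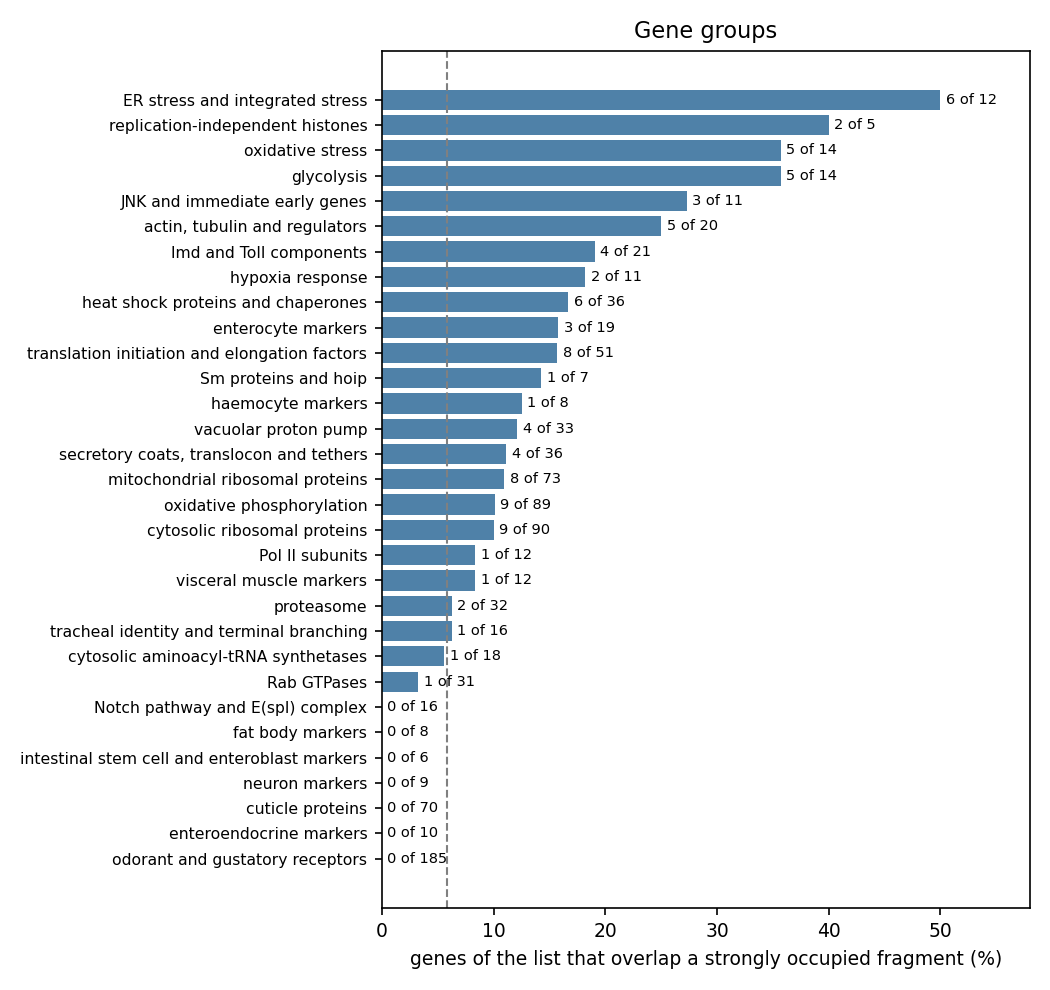
Share of the genes of each list that overlap a strongly occupied fragment (horizontal axis, percent), with the count of touched genes and of genes measured beside each bar. The dashed line is the share of all 17679 genes, 5.84%. The bars run from 50% for endoplasmic reticulum and integrated stress to 0 for 7 lists.

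The cell type lists were touched as follows. The list for tracheal identity and branching of terminal cells had 1 of 16 genes touched (6.25%). The shares were 5.84% of all genes and 14.3% of genes of 20000 bp or more. No other gene of the list than ec was touched. The list differs from the tracheal markers planned beforehand. Those did not include ec, bnl, tgo or Cdc42, and planned markers such as Gasp, serp, verm and pio are not among the 16. The touched gene, ec, spans 111 fragments of 100 bp or more. Of its 2 strongly occupied fragments 1 had 2.25 and 2.16 in Pe and 2.96 and 3.43 in Suc. The other had 2.39 and 3.06 in Pe and 2.51 and 2.28 in Suc. The terminal cell regulator bs, the FGF receptor gene btl and its adaptor stumps held none. Their means over the gene were 0.55 and 0.26 in Pe and 0.84 and 1.13 in Suc for bs. For btl they were 0.57 and 0.09 in Pe and 0.89 and 1.05 in Suc. For stumps they were 1.08 and 1.0 in Pe and 1.05 and 1.54 in Suc. These 3 genes do not stand for the list. Over the 4 profiles the gene mean lay between -0.24 and -0.04 for rib, and between 0.009 and 0.105 for pnt. It lay between -0.33 and 0.12 for knrl, -0.28 and 0.11 for uif, and -0.48 and 0.405 for trh. Higher values also occurred, with kni between -0.59 and 1.79 and Cdc42 between 0.41 and 0.898. The list's genes are long, with a median of 23651 bp, and 0.237% of their fragments were strongly occupied, against 0.36% in genes of 20000 bp or more. Of 19 enterocyte markers 3 were touched (15.8%), namely Jon65Aiii, Jon99Ci and betaTry. These 19 genes are short, with a median of 981 bp, and 2.18% of genes under 1000 bp were touched. Of their fragments 3.14% were strongly occupied, against 1.15% in genes under 1000 bp. Untouched markers varied, with alphaTry between 1.17 and 3.12, deltaTry between -0.15 and 0.03, and Npc2f between -0.27 and -0.04 over the 4 profiles. Of 12 visceral muscle markers how was touched, and of 8 haemocyte markers crq, a scavenger receptor gene. None of the 6 markers of intestinal stem cells and enteroblasts, 10 of enteroendocrine cells, 8 of fat body or 9 of neurons was touched, nor any of 16 Notch pathway, 70 cuticle protein and 185 odorant, gustatory and ionotropic receptor genes. The part of other midgut cells in the strongly occupied fragments was not tested.

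The comparison of Pe with Suc asks whether the strongest Pol II signal changed when the flies were fed bacteria. The rule set the same threshold for profiles of unequal spread, and the lowest value came from a Pe profile at 660 and 302 of the 1409 fragments and from a Suc profile at 371 and 76, so the choice itself bears on the difference. Each fragment also had to exceed 2 in both conditions. Fewer labelled cells and less signal per cell cannot be told apart in such pooled tissue. In the two-sided limma fit over 233383 fragments, at a p under 0.05 after Benjamini-Hochberg adjustment 0 were higher and 0 lower in Pe (0% of all fragments). Among the 1409 strongly occupied fragments 0 passed (smallest limma adjusted p = 0.665). At an unadjusted limma p under 0.05 there were 0 higher, against 5.78% of all fragments. Lower were 5 of 1409, a smaller share than the 1.68% of all. These 5, named after their values were seen, lie in CG10911, Jhbp7, CG12730, CG3281 and ckn, with differences of -2.31, -1.75, -1.45, -1.23 and -1.44 on the log2 scale. In the gene fit 0 of 13995 genes passed (0%). Of the 962 touched genes tested 8 had an unadjusted limma p under 0.05 with a higher mean in Pe. This is a smaller share than the 1.59% of all genes. With a lower mean in Pe there were 32, a larger share than the 2.29% of all genes.

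As deposited, the strongly occupied fragments had a median difference of -0.24 between Pe and Suc. The difference was negative at 986 of 1409 (70.0%), against 39.3% of all fragments. Both Pe values lay below both Suc values at 394 (28.0%), against 11.6% of all fragments, and above them at 69 (4.90%), against 27.7% of all. This direction depended on the scale of the profiles. After quantile normalization the median was 0.28 and 28.5% were negative, against 49.9% of all fragments. Under median and MAD (median absolute deviation) scaling the median was 0.45 with 19.0% negative, against 49.2% of all. Without Suc replicate 2, the profile with the widest upper tail, the median was 0.06. No direction between the conditions is therefore given for the strongly occupied fragments as a group. On the deposited scale, both Pe values lay below both Suc values at 178 of 962 touched genes tested (18.5%), against 14.0% of all genes. They lay above at 51 (5.30%), against 23.0%. These gene counts are not given on the other scales, so no direction is drawn from them either.

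Single runs differed more than the group. The largest negative difference among runs whose conditions did not overlap was at betaTry, a trypsin gene of enterocytes. A fragment of 282 bp that holds one of its ends, at chr2R:11346075-11346357, had 4.56 and 2.20 in Pe and 6.08 and 5.80 in Suc, a difference of -2.56. Another fragment of 313 bp inside the gene, the next but one in this order, had 3.92 and 2.02 in Pe and 5.73 and 4.72 in Suc, a difference of -2.25. The 2 Pe profiles differed from each other by nearly as much as the conditions did. Neighbouring trypsin genes are similar in sequence, so reads may be shared between them. Between these in size, the difference at CG10911 was -2.31, from 3.17 and 2.28 in Pe and 5.14 and 4.92 in Suc, with little spread in Suc. At Gpo1, a mitochondrial glycerol-3-phosphate oxidase gene, values were 2.37 and 2.00 in Pe and 3.17 and 4.95 in Suc, and at CG6836 they were 2.39 and 2.45 in Pe and 3.48 and 4.94 in Suc.

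As deposited, differences in the other direction were smaller. This order depended on the scale of the profiles: the 5 positive runs below ranged from 1.2 to 1.36 and the 5 negative runs above from -1.58 to -1.23 after quantile normalization, and under MAD scaling they ranged from 1.47 to 1.70 and from -1.29 to -0.99. A fragment near one end of Sox21b, at position 14130070 on 3L, had 2.97 and 4.18 in Pe and 2.48 and 2.82 in Suc, a difference of 0.92. A run in mtd had 2.86 and 4.09 in Pe and 2.66 and 2.52 in Suc (0.89), and one at Uhg1, a host gene of snoRNAs, had 2.5 and 3.65 in Pe and 2.18 and 2.33 in Suc (0.82). The run at Sytbeta and CG43678 had 2.55 and 3.55 in Pe and 2.08 and 2.40 in Suc (0.81), and the fragment in Vha26, a subunit gene of the vacuolar proton pump, had 2.79 and 3.46 in Pe and 2.51 and 2.22 in Suc (0.76). In all 5 the Pe replicate 2 value was the highest of the 4, and Pe replicate 1 stood closer to the Suc values. None of the 10 runs held a fragment that passed in limma (smallest adjusted p = 0.665). The 10 runs were chosen as not overlapping, so leaving out 1 profile at a time could not change their sign. Quantile normalization and MAD scaling kept the sign of all 10. Without Pe replicate 2 the differences were 0.32 at Sox21b, 0.27 at mtd, 0.24 at Uhg1, 0.31 at Sytbeta and 0.43 at Vha26, and without Pe replicate 1 they were 1.53, 1.5, 1.4, 1.31 and 1.09. The betaTry fragments had -3.74 and -3.20 without Pe replicate 1 and -1.38 and -1.30 without Pe replicate 2. Without Suc replicate 2 the difference was -0.98 at Gpo1 and -1.07 at CG6836, and without Suc replicate 1 it was -2.76 and -2.52. At CG10911 it stayed between -2.75 and -1.87.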

How the data were processed

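Targeted DamID profiles of 8 libraries were analysed as 4 deposited profiles, each the log2 ratio of a Dam-Pol II library over its Dam library per GATC fragment. The labels call the replicates biological. The deposited log2 values were used as the authors scaled them, with the BDGP 6 build per the submitters' processing notes. How reads were aligned and ratios scaled, and the base of the logarithm, is not given in the sources used here; base 2 is assumed. The file of Suc replicate 2 names its track with another replicate number, and its group follows the labels.

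From these values, fragments of 100 bp or more on 6 arms were overlapped with the RefSeq Release 6 gene table, and adjacent strongly occupied fragments were merged. The table has no strand, exons or UTRs, so position refers to either gene end, not to the planned gene start. No genome was used here, and no sequence is shown. The 28 mitochondrial and 9944 Y fragments were not used, and 0 columns came from other samples. Gene values are means over fragments weighted by the length of their overlap with the gene, for all genes. The gene fit took only protein coding and lncRNA genes with 3 or more fragments. Pe was compared with Suc by limma 3.58.1 in R 4.3.3, two-sided, with trended prior variance and Benjamini-Hochberg adjustment at 0.05 over all fragments or genes. The fits were also run on simulated data with independent errors. Same-numbered profiles here deviated together, so the power of the fits on these profiles was not measured. Other values were computed in Python 3.11.15.

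Named were the genes of the 8 longest runs, of the 10 runs with the highest lowest-profile mean, of the 5 largest non-overlapping differences per direction, the 3 fragments nearest the threshold on each side, the 6 genes with the most fragments (ties broken by the share covered), the 4 of at least 1 kb with the largest share covered, and up to 3 genes per list. The fragments and lists were chosen with earlier results of these data known. Alternatives were other thresholds, minimum lengths, scalings, windows, gaps, gene types, prior variance, gene filters, a replicate block and leaving out each profile.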

Additional observations from a re-analysis of the deposited data

Results flagged for a closer look

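Strong signal also appeared in fragments that the choice left out. Among the fragments under 100 bp, 447 of 120158 (0.372%) had a log2 ratio above 2 in all 4 profiles, and among fragments of 100 bp or more that overlap no gene, 95 of 61816 (0.154%) did. Both were looked at because they lie outside the main measurement. The Dam libraries are the denominator of each ratio, so no separate control level exists for them.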

How the results depend on the processing

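With a threshold of 1.5 there were 4612 fragments, 2945 runs and 2472 genes, and with 2.5 there were 308, 263 and 279. Leaving out 1 profile gave 1471 to 2592 fragments, 1094 to 1865 runs and 1065 to 1708 genes, each highest without Pe replicate 2. The share in dense neighbourhoods was 48.3% at 1.5, 55.5% at 2.5, 45.4% with a 5 kb window and 41.2% with a 20 kb window. Runs holding a gene end were 24.7% at 2.5 and 25% for protein coding genes only. Lists above the share of all genes were 22, and 14 at 2.5. The share of fragments in runs of 2 or more was 59.1% at 1.5, 26.3% at 2.5, 68.1% with no minimum length, 33.4% with 200 bp, 49.0% after quantile normalization, 50.1% with 1 fragment allowed between, and 43.6% to 47.4% with 1 profile left out. Shares above the threshold in the left-out profile, at 1.5 and 2.5, were 82.7% and 56.9% for Pe replicate 1, 66.5% and 45.4% for Pe replicate 2, 82.7% and 73.5% for Suc replicate 1, and for Suc replicate 2 90.6% at 2.5. The median difference between Pe and Suc was 0.28 after quantile normalization, 0.45 after MAD scaling, and -0.56 to 0.0609 with 1 profile left out, where it changed sign without Suc replicate 2. Fragments with Pe below Suc numbered 111 (7.88%, against 17.1% of all fragments) after quantile normalization and 8 (0.568%, against 17.4%) after MAD scaling. Those with Pe above numbered 510 (36.2%, against 18.5%) and 509 (36.1%, against 19.0%). With 1 profile left out 443 to 877 lay below (31.4% to 62.2%, against 21.8% to 29.7% of all). Above lay 100 to 452 (7.10% to 32.1%, against 37.7% to 49.2%). With fewer profiles non-overlap was more frequent among all fragments too. The cause of these changes was not tested. Same-numbered profiles deviated together with a correlation of 0.178 over fragments and 0.285 over genes. With 2 pairs they share only a number, and the replicate block gave 0 calls in limma for fragments (15018 higher and 4550 lower at an unadjusted p under 0.05) and 0 for genes (448 and 368). Every other limma alternative run also gave 0 calls. Depth is unknown, so its limit on single fragments cannot be given.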
